A study of Saccharomyces cerevisiae with 24 samples.

Results

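The G1 cyclins described here are 5 genes of the budding yeast Saccharomyces cerevisiae: CLN1 (YMR199W), CLN2 (YPL256C), CLN3 (YAL040C), PCL1 (YNL289W) and PCL2 (YDL127W). They were chosen by systematic name from the 7032 features of the deposited tables, by a rule that uses no measured value. The members and the gene lists below were, however, chosen with earlier results of these data known. Their counts are therefore not those of sets picked blind. RNA was sequenced from 24 pools of diploid BY4743 cells, a laboratory strain with no further alteration named in the labels, grown in rich YPD medium at 30 °C. Small G1 cells were separated by centrifugal elutriation, left to grow until they reached a chosen size, stopped with cycloheximide and sodium azide, and pooled with cells of similar size from other cultures. The 24 pools span 39.1 to 75.9 fL in measured cell size and form 8 groups of 3 biological replicates, here called 40, 45, 50, 55, 60, 65, 70 and 75 fL. Larger cells had also spent longer in culture, so size and time after elutriation cannot be told apart, and cycloheximide, which stops translation, was added to every pool. Ribosomal RNA was depleted before sequencing. The values are shares of the RNA in a library and not amounts per cell.

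Cyclins are the regulatory subunits of cyclin-dependent kinases. In late G1 of budding yeast, Cln3 with the kinase Cdc28 starts the commitment to division called Start by relieving the repressor Whi5 from the transcription factor SBF (Swi4 with Swi6). SBF then turns on CLN1, CLN2, PCL1 and PCL2. Cln1 and Cln2 activate Cdc28 and promote budding and entry into S phase, while Pcl1 and Pcl2 activate another kinase, Pho85.

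**Figure D1:**
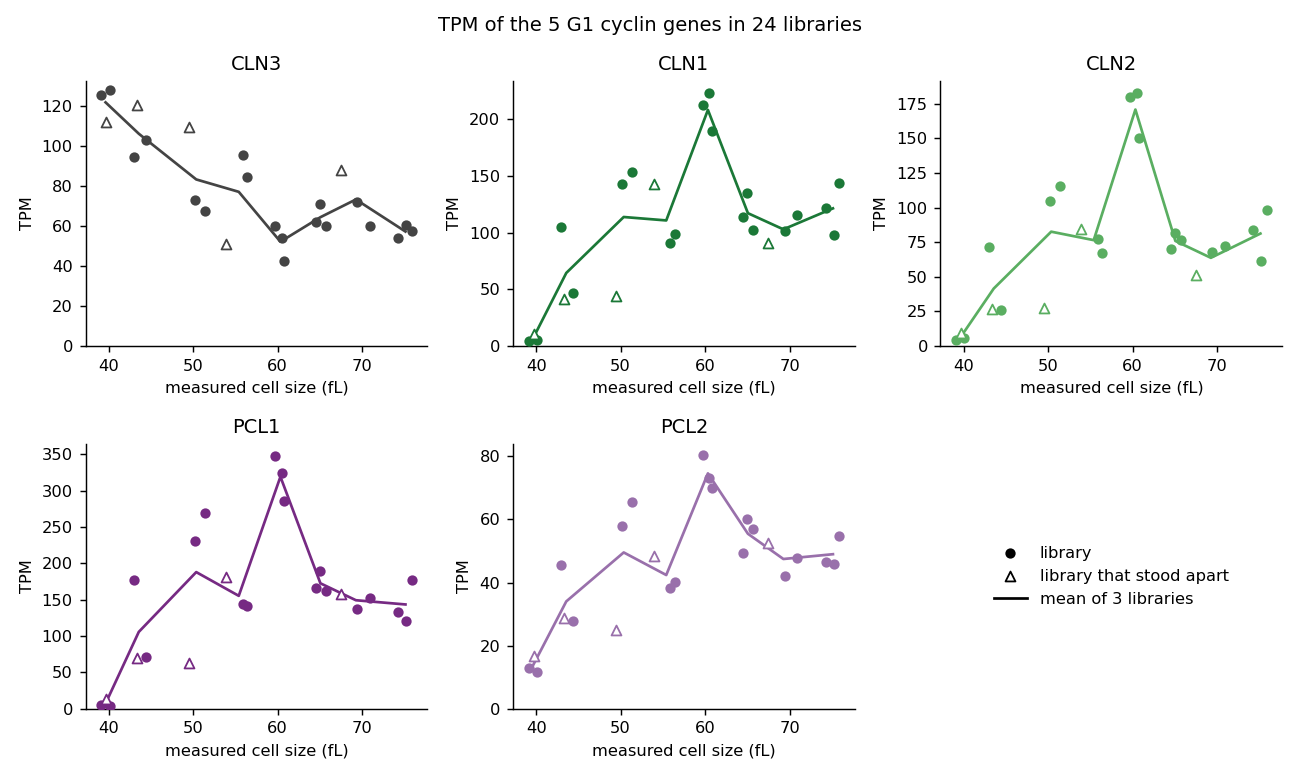
TPM of CLN3, CLN1, CLN2, PCL1 and PCL2 (y axis) against the measured cell size of each pool in fL (x axis). Points are libraries, open triangles the 5 libraries that stood apart from their replicates over all genes, and lines join the means of 3 libraries. CLN1, CLN2, PCL1 and PCL2 were lowest at 40 fL and highest at 60 fL, and CLN3 was highest at 40 fL and lowest at 60 fL.

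Over the 8 sizes, CLN1, CLN2, PCL1 and PCL2 were scarce in the smallest cells, had mean levels at 60 fL that were several times those at 40 fL, and were intermediate in the largest cells. CLN3 was lower at 60 than at 40 fL, within a far narrower range. All 5 genes differed among the 8 sizes by edgeR's quasi-likelihood test with Benjamini-Hochberg adjustment, as did 79.6% of the 6402 genes tested, so passing this test does not set them apart. The span between the highest and lowest size was taken from means of log2 counts per library total, with TMM scaling. It was 6.05 for PCL1, 5.44 for CLN1, 5.19 for CLN2, 2.85 for PCL2 and 0.85 for CLN3, against a median of 0.79 over all genes tested. Ranked by that span, PCL1 was 7th, CLN1 18th, CLN2 23rd, PCL2 172nd and CLN3 2927th. On this scale the mean of CLN3 was highest at 45 fL.

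SBF binds a sequence called SCB, and the related factor MBF binds one called MCB. The stretches upstream of the 4 cyclin genes that rose are shown here because they hold all but 1 of the SCB and MCB matches found for these genes. Both strands of the 1000 bases before each first coding base were searched for CACGAAA (SCB), CGCGAAA (an SCB variant) and ACGCGT (MCB). Capitals mark the matches, on either strand, and each sequence reads 5′ to 3′ on the strand of its gene, from the RefSeq sequence of build R64. None of the 4 stretches overlaps an annotated gene.
CLN1, chrXIII:661832-662063, plus strand, 812 to 581 bases before the start: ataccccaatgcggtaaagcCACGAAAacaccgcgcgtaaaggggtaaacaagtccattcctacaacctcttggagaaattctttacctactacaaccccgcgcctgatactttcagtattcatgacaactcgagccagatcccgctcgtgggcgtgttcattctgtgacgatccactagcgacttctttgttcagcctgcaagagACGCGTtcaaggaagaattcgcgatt
CLN2, chrXVI:67126-67240, minus strand, 626 to 512 bases before the start: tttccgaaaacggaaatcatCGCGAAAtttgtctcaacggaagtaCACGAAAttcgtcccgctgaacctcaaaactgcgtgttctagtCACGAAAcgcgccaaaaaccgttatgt
PCL1, chrXIV:87550-87629, plus strand, 347 to 268 bases before the start: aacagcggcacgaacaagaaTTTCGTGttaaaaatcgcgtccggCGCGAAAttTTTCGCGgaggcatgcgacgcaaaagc
PCL2, chrIV:234514-234583, plus strand, 413 to 344 bases before the start: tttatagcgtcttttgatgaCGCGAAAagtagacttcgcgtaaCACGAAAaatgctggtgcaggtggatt

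CLN2 had 4 matches to SCB, its variant or MCB in its 1000 bases, PCL1 had 3, and CLN1 and PCL2 had 2 each. The match of CLN2 outside the stretch shown lies 999 to 993 bases before the start. CLN3 had none. Over the upstream stretches of 5996 genes, 26.0% held at least 1 such match, 4.7% at least 2, 0.851% at least 3 and 0.284% at least 4. SCB alone was found in 12.7% of genes, its variant in 7.91% and MCB in 8.51%. None of the 5 genes had a match within 250 bases before to 50 bases after the start, where 10.4% of 6001 genes had one. The core bound by Mcm1, a factor of genes expressed between M phase and G1, was searched as CC and GG with any 6 bases between them. It was found 6 times upstream of CLN3, which 1.73% of genes matched or exceeded, 4 times upstream of PCL1, 3 times upstream of CLN2, 2 times upstream of CLN1 and not upstream of PCL2, while 77.1% of genes held at least 1. No matches upstream of the 5 genes overlapped each other. A match is a description of the letters and not a measured binding site.

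**Figure D2:**
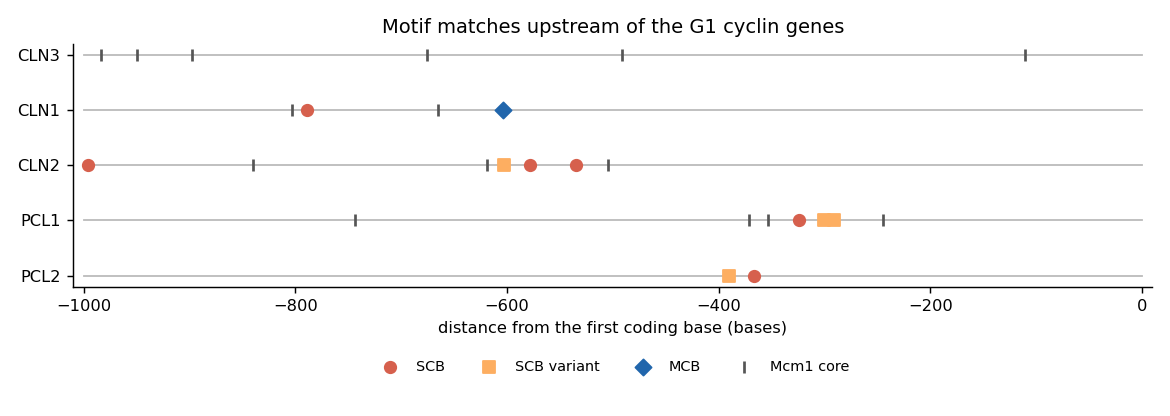
Positions of motif matches in the 1000 bases before the first coding base of each gene (x axis, distance in bases, with the start at 0). Symbols stand for the 4 motifs shown. The SCB and MCB matches of CLN1, CLN2, PCL1 and PCL2 lie more than 250 bases before the start, and CLN3 has Mcm1 core matches and no SCB or MCB match.

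Each gene's identity in build R64 bears on how its reads could be counted. CLN1 spans chrXIII:662644-664284 on the plus strand, CLN2 chrXVI:64977-66614 on the minus strand and CLN3 chrI:65778-67520 on the minus strand. PCL1 spans chrXIV:87897-88736 and PCL2 chrIV:234927-235853, both on the plus strand. These are coding intervals, none overlaps another annotated gene, and none contains a word of 31 bases that occurs elsewhere in the genome.

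Libraries held 16103753 to 24408547 counts, so that the 5 genes were well covered: the lowest count of any of them was 61, for PCL1 in 1 library of 40 fL. Over all genes, 5 libraries stood at least 1.4 times as far from their 2 replicates as those stood from each other. They are the libraries measured at 39.7, 43.3, 49.5, 53.9 and 67.5 fL. Their values are kept below, and the members' calls that change without all 5 of them are given beside each step. The 5 were picked by their spread in these same data, and leaving them out raised the number of genes called at each step. A member that passes without them is therefore no independent evidence, and the count over all genes is given beside it. The labels give no sequencing batch that divides the libraries.

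CLN3 encodes the upstream cyclin of Start, and its transcript was the most abundant per length of the 5 in the smallest cells. CLN3 had 112, 125 and 128 TPM (a share of the library corrected for gene length, with the same total in each library) at 40 fL, 103, 94.7 and 120 TPM at 45 fL, and 67.5, 109 and 73.0 TPM at 50 fL. It had 95.4, 51.2 and 84.5 TPM at 55 fL and 42.3, 60.1 and 54.0 TPM at 60 fL. The 3 libraries of 60 fL lay below all 3 of 40 fL, with overlap at every step between neighbouring sizes. In the largest cells CLN3 had 62.1, 71.1 and 59.9 TPM at 65 fL, 87.8, 71.9 and 59.9 TPM at 70 fL, and 53.9, 60.4 and 57.3 TPM at 75 fL. These later levels also lay below all 3 libraries of 40 fL. The share of all genes separated in this way from 40 fL was not counted. The median change of all genes, 60 over 40 fL, was itself -0.30 with library totals. In order of mean level the sizes ran 40, 45, 50, 55, 70, 65, 75 and 60 fL, and no neighbours in that order were separated beyond the spread of their libraries.

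CLN1 and CLN2 encode the pair of cyclins that activate Cdc28 after Start. CLN1 had 10.8, 4.60 and 4.99 TPM at 40 fL, 47.1, 105 and 41.4 TPM at 45 fL, and 154, 44.2 and 143 TPM at 50 fL. It had 91.3, 143 and 98.4 TPM at 55 fL and 190, 212 and 223 TPM at 60 fL. The libraries of 40 fL were lower than all others and those of 60 fL higher than all others, while from 45 to 55 fL the replicates of a size spread widely. The low value at 50 fL, 44.2 TPM, belonged to the library of 49.5 fL, one of those that stood apart. Beyond 60 fL CLN1 had 114, 135 and 103 TPM at 65 fL, 91.3, 102 and 116 TPM at 70 fL, and 122, 98.2 and 144 TPM at 75 fL. Its mean level at 75 fL was 58.3% of that at 60 fL.

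CLN2 had 9.27, 4.42 and 5.51 TPM at 40 fL, 26.1, 71.5 and 27.1 TPM at 45 fL, and 116, 27.3 and 105 TPM at 50 fL. It had 77.6, 84.4 and 67.5 TPM at 55 fL and 150, 180 and 182 TPM at 60 fL. The same library of 49.5 fL was low, and again the libraries of 40 fL were the lowest and those of 60 fL the highest. CLN2 then had 69.8, 81.3 and 76.6 TPM at 65 fL, 51.3, 67.6 and 72.2 TPM at 70 fL, and 83.7, 61.7 and 98.4 TPM at 75 fL. The mean at 75 fL was 47.6% of that at 60 fL. For CLN1 and CLN2 the only neighbours in the order of mean levels whose libraries were separated were 60 fL from the next size and 45 fL from 40 fL. The share of all genes separated between these pairs of sizes was not counted. Between 60 and 65 fL, 50% of all genes were separated.

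PCL1 and PCL2 encode cyclins of Pho85 that act near Start. PCL1 had 13.2, 4.74 and 3.83 TPM at 40 fL, 70.7, 177 and 69.8 TPM at 45 fL, and 270, 63.6 and 231 TPM at 50 fL. It had 144, 182 and 141 TPM at 55 fL and 286, 347 and 324 TPM at 60 fL. It was the most abundant of the 5 in all 3 libraries of 55, 60, 65, 70 and 75 fL, having been below CLN3 and PCL2 in every library of 40 fL. PCL1 had 166, 190 and 162 TPM at 65 fL, 158, 138 and 152 TPM at 70 fL, and 133, 121 and 177 TPM at 75 fL. Its mean at 75 fL was 44.96% of that at 60 fL.

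PCL2 had 16.7, 13.1 and 11.5 TPM at 40 fL, 27.7, 45.7 and 28.7 TPM at 45 fL, and 65.7, 25.0 and 58.0 TPM at 50 fL. It had 38.4, 48.5 and 40.3 TPM at 55 fL and 70.1, 80.5 and 73.2 TPM at 60 fL. Of the 4 genes that rose it had the highest level at 40 fL and the lowest at 60 fL. PCL2 had 49.4, 60.03 and 56.9 TPM at 65 fL, 52.5, 42.1 and 47.8 TPM at 70 fL, and 46.5, 45.8 and 54.7 TPM at 75 fL. Its mean at 75 fL was 65.7% of that at 60 fL. For PCL1 and PCL2, too, the sizes whose libraries were separated from the next in order of mean level were 60 fL at the top and 40 fL at the bottom. For PCL2 the size next to 60 fL was 65 fL, and 50% of all genes were separated there. That share was not counted for the other pairs of sizes.

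The first step asks what changed between the smallest cells and those of 45 fL. CLN1 rose by 3.46 ± 0.46 on the log2 scale (SE; 11.0-fold, adjusted p = 0.000119), on the scale of counts per library total (CPM) with TMM scaling, 45 over 40 fL. PCL1 rose by 4.07 ± 0.52 (adjusted p = 8.74e-05), CLN2 by 2.91 ± 0.47 (adjusted p = 0.000642) and PCL2 by 1.53 ± 0.28 (adjusted p = 0.00167). Thus 4 of the 5 members passed as higher, where 11.6% of all genes did, and none passed as lower, where 2.84% did. CLN3 differed by 0.03 ± 0.17 (adjusted p = 0.936), and the sign of that value turned with the scaling, reaching -0.16 with library totals. The 4 calls stood under all 12 ways of fitting, over which the change ran from 3.03 to 4.18 for CLN1 and from 1.22 to 1.77 for PCL2.

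From 45 to 50 fL the change was less certain. CLN2 rose by 1.18 ± 0.44 (adjusted p = 0.0471) and PCL2 by 0.72 ± 0.27 (adjusted p = 0.0469), 2 of the 5 members, where 15.3% of all genes passed as higher. CLN1 at 1.00 ± 0.42 (adjusted p = 0.0692) and PCL1 at 1.01 ± 0.46 (adjusted p = 0.0858) did not pass, although DESeq2 called CLN1 (adjusted p = 0.0413). Without the 5 libraries that stood apart, CLN2 and PCL2 stayed past the threshold, and CLN1 (adjusted p = 0.00141) and PCL1 (adjusted p = 0.00234) passed it too. Over all genes 3470 were called in that setting, against 2055 with all libraries. The calls of CLN2 and PCL2 were lost with library totals, limma-voom, TPM at either pseudocount and the fit on 2 sizes (adjusted p up to 0.288 for CLN2 and 0.302 for PCL2), and in 18 of the 24 fits that left out 1 library. Without the libraries of 44.4, 43.3, 51.4 or 50.2 fL the adjusted p was 0.125, 0.232, 0.209 or 0.177 for CLN2 and 0.109, 0.230, 0.249 or 0.185 for PCL2. Without the library of 49.5 fL, CLN1 passed at 1.402 (adjusted p = 0.00384) and PCL1 at 1.44 (adjusted p = 0.00493), and without the library of 43.0 fL they passed at 1.54 (adjusted p = 0.0283) and 1.60 (adjusted p = 0.0307). Over all genes 3434 were called without the library of 49.5 fL, against 2055 with all libraries. No member was called between 50 and 55 fL, where 21.7% of all genes changed in either direction. There the members' changes ran from -0.32 for PCL1 to -0.08 for CLN1, none had an unadjusted p under 0.05 and DESeq2 called none of them, but CLN1, PCL1 and PCL2 passed as lower without the 5 libraries that stood apart. Over all genes 3676 were called in that setting, against 1390 with all libraries. PCL2 also passed, at -0.61 (adjusted p = 0.0165), without the library of 49.5 fL alone, where 2606 genes were called over all genes.

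Between 55 and 60 fL no member passed, where 4.8% of all genes changed in either direction. CLN1 at 0.94 ± 0.42, CLN2 at 1.20 ± 0.43, PCL1 at 1.08 ± 0.45 and PCL2 at 0.85 ± 0.27 had adjusted p of 0.133, 0.0793, 0.120 and 0.0585 by edgeR, 60 over 55 fL, and CLN3 at -0.51 ± 0.17 had 0.0664. All 5 had an unadjusted p under 0.05, DESeq2 called 3 of them, CLN2, PCL2 and CLN3, and a fit on the 2 sizes alone called CLN2, PCL1 and PCL2. Without the 5 libraries that stood apart all 5 passed, CLN1 at 1.27 (adjusted p = 0.000571), CLN2 at 1.37 (adjusted p = 0.00183), PCL1 at 1.30 (adjusted p = 0.00114), PCL2 at 1.06 (adjusted p = 2.41e-05) and CLN3 at -0.65 (adjusted p = 0.000218). Over all genes 3438 were called in that setting, against 307 with all libraries. Leaving out the library of 49.5 fL, which is in neither group and enters through the shared estimate of the spread, brought all 5 past the threshold, with adjusted p of 0.0449 for CLN1, 0.0134 for CLN2, 0.0241 for CLN3, 0.0342 for PCL1 and 0.00351 for PCL2. Over all genes 1425 were called without it, against 307 with all libraries. Without the library of 53.9 fL, CLN3 (adjusted p = 0.00751) and PCL2 (adjusted p = 0.0199) passed, and PCL2 passed as well without the library of 43.3, 51.4 or 50.2 fL (adjusted p = 0.0498, 0.0460 or 0.0485). In that order, these settings called 1886, 566, 600 and 669 genes over all genes. In TPM, the 3 libraries of 60 fL lay above all 3 of 55 fL for CLN1, CLN2, PCL1 and PCL2, 4 of 5 members, where 31% of all genes had libraries of the 2 sizes that did not overlap.

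From 60 to 65 fL no member passed, where 5.09% of all genes did in either direction. The changes, 65 over 60 fL, were -0.87 ± 0.42 for CLN1, -1.21 ± 0.43 for CLN2, -0.93 ± 0.45 for PCL1, -0.47 ± 0.26 for PCL2 and 0.26 ± 0.17 for CLN3, with adjusted p of 0.232, 0.108, 0.241, 0.305 and 0.382 by edgeR. Of these, 2 had an unadjusted p under 0.05, CLN1 and CLN2, and DESeq2 called CLN2 (adjusted p = 0.0488). CLN2 also passed without the library of 49.5 fL (adjusted p = 0.0228) and with the library of 67.5 fL in the 65 fL group (adjusted p = 0.0405). Over all genes 655 and 582 were called in those settings, against 326 with all libraries as grouped here. Without the 5 libraries that stood apart, CLN1 (adjusted p = 0.00456), CLN2 (adjusted p = 0.00300), PCL1 (adjusted p = 0.00628) and PCL2 (adjusted p = 0.00606) passed as lower. Over all genes 1966 were called in that setting, against 326 with all libraries. A fit on the 6 libraries of 60 and 65 fL alone called CLN1, CLN2, PCL1 and PCL2 as lower, with adjusted p of 5.48e-06, 3.38e-07, 7.43e-07 and 0.000204. That fit called 2314 genes over all genes, against 326 with all libraries. In TPM these 4 members again had libraries of the 2 sizes that did not overlap, as 50% of all genes did.

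Between 65 and 70 fL no member passed by edgeR, and 0% of all genes did, and between 70 and 75 fL none passed where 0.344% did. In both steps no member had an unadjusted p under 0.05, DESeq2 called none, and the largest change was 0.37 ± 0.43, for CLN2 at 75 over 70 fL. In TPM, the PCL1 libraries of 70 fL lay below all 3 of 65 fL, the 1 member of 5 without overlap there, where 11.2% of all genes had none.

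**Figure D3:**
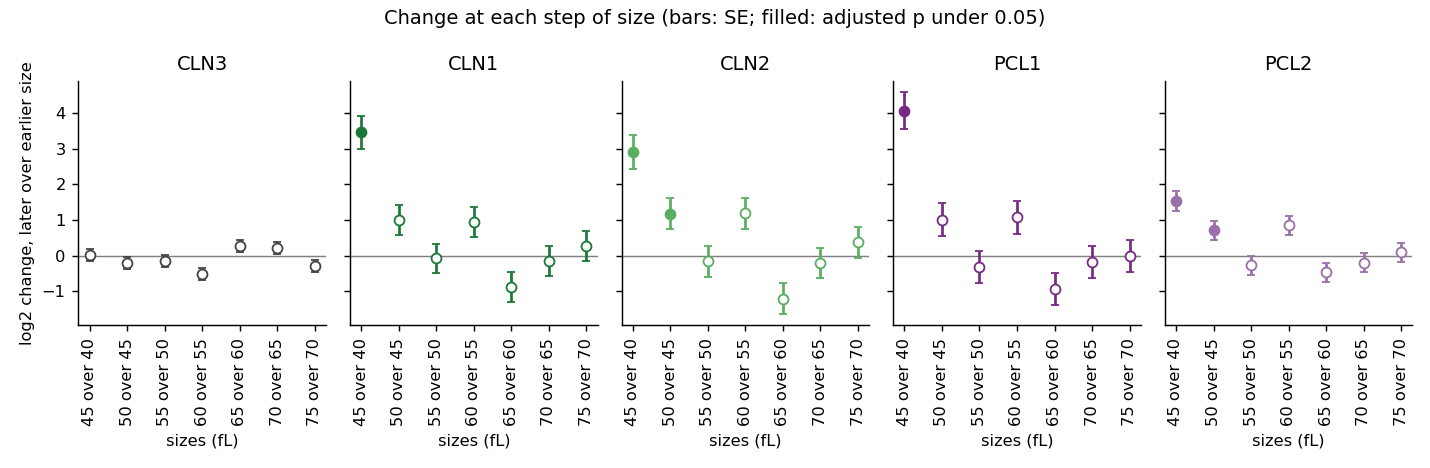
Log2 change of each gene between neighbouring sizes (y axis, later over earlier size, from CPM with TMM scaling) for the 7 steps (x axis). Bars are standard errors and filled points have an adjusted p under 0.05. The step from 40 to 45 fL is the largest for CLN1, CLN2, PCL1 and PCL2, and no step of CLN3 is filled.

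All 5 members passed across the wider span. At 60 over 40 fL, PCL1 rose by 5.84 ± 0.56 (57.2-fold, adjusted p = 7.41e-07), CLN1 by 5.33 ± 0.50 (40.2-fold, adjusted p = 6.87e-07), CLN2 by 5.13 ± 0.52 (35.1-fold, adjusted p = 8.77e-07) and PCL2 by 2.84 ± 0.28 (7.15-fold, adjusted p = 8.70e-07). These are 4 of 5 members, against 30.9% of all genes that passed as higher. CLN3 fell by 0.82 (SE 0.17, adjusted p = 0.000453), 1 of 5 members, where 34.2% of all genes passed as lower. The size of the fall of CLN3 depended on the scale, running from -1.23 with TPM to -0.76 with no filter, with all 12 ways of fitting calling it lower. The median change of all genes, 60 over 40 fL, was -0.04 with TMM scaling and -0.30 with library totals.

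At 75 over 40 fL, CLN1 was higher by 4.58 ± 0.48 (adjusted p = 1.22e-06), CLN2 by 4.09 ± 0.49 (adjusted p = 2.97e-06), PCL1 by 4.71 ± 0.54 (adjusted p = 1.92e-06) and PCL2 by 2.26 ± 0.28 (adjusted p = 3.68e-06). Again 4 of 5 members passed as higher, against 31% of genes, and CLN3 passed as lower (-0.65 ± 0.17, adjusted p = 0.00321), against 30.2%. These contrasts share the libraries of 40 fL. At 75 over 60 fL no member passed by edgeR, where 4.01% of all genes did in either direction, although 3 had an unadjusted p under 0.05 (CLN2, PCL1 and PCL2). DESeq2 called none, and 4 passed in a fit on those 2 sizes alone, with changes of -0.79 for CLN1, -1.08 for CLN2, -1.16 for PCL1 and -0.61 for PCL2. That fit called 1129 genes over all genes, against 257 with all libraries. Those 4 members also passed as lower without the 5 libraries that stood apart, with adjusted p of 0.0149, 0.00986, 0.00323 and 0.00268. Over all genes 1420 were called in that setting, against 257 with all libraries. PCL2 also passed without the library of 49.5 fL (adjusted p = 0.0424), where 466 genes were called over all genes.

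Ratios of members within a library do not depend on how libraries are scaled. They were compared between the 9 libraries of 50 to 60 fL and the 6 of 40 to 45 fL, and between the 9 of 65 to 75 fL and the 9 of 50 to 60 fL, by an exact two-sided permutation test for each of 10 pairs, with adjustment over the 20 tests. PCL1 over PCL2 had a mean log2 TPM ratio of 1.92 ± 0.24 (SD, n = 9) at 50 to 60 fL and 0.20 ± 1.54 (SD, n = 6) at 40 to 45 fL, a difference of 1.72 (exact permutation test, adjusted p = 0.00666). CLN1 over PCL2 differed by 1.46 and CLN2 over PCL2 by 1.38 in the same direction (exact permutation test, adjusted p = 0.00400 for each). Relative to the 3 other genes that rose, PCL2 therefore rose less between these spans. Its ratio to CLN3 still increased: CLN3 over PCL2 differed by -2.04 (exact permutation test, adjusted p = 0.00742). The earlier span joins unlike sizes: PCL1 over PCL2 in TPM was 0.333 to 0.788 at 40 fL and 2.43 to 3.87 at 45 fL. For PCL1, CLN1 and CLN2 over PCL2, the libraries of 45 fL overlapped those of 50 fL and not those of 40 fL. Much of each difference thus rests on the libraries of 40 fL, and the tests ignored size within a span.

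Among CLN1, CLN2 and PCL1 no ratio passed in this span. CLN1 over CLN2 was 0.44 ± 0.19 (SD, n = 9) at 50 to 60 fL and 0.36 ± 0.38 (SD, n = 6) at 40 to 45 fL on the log2 scale (exact permutation test, adjusted p = 0.688). CLN1 over PCL1 differed by -0.26 and CLN2 over PCL1 by -0.34 (exact permutation tests, adjusted p = 0.202 and 0.358). The earlier span joins sizes whose ratios were separate: CLN1 over CLN2 in TPM was 1.47 to 1.81 at 45 fL and 0.905 to 1.17 at 40 fL, CLN1 over PCL1 was 0.593 to 0.666 at 45 fL and 0.819 to 1.30 at 40 fL, and CLN2 over PCL1 was 0.369 to 0.404 at 45 fL and 0.703 to 1.44 at 40 fL. That shift within the span was not tested. In the later span 1 of the 10 pairs passed: PCL1 over PCL2 was 1.61 ± 0.11 (SD, n = 9) at 65 to 75 fL and 1.92 ± 0.24 (SD, n = 9) at 50 to 60 fL (exact permutation test, adjusted p = 0.0107). CLN1 over CLN2 differed there by 0.20 and CLN2 over PCL2 by -0.36 and just missed (exact permutation tests, adjusted p = 0.0502 and 0.0517). Without the library of 49.5 fL, or without all 5 that stood apart, 4 of the 10 pairs passed, without that of 74.3 or 75.9 fL 3 passed, and without that of 53.9, 56.4, 65.7 or 67.5 fL 2 passed.

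**Figure D4:**
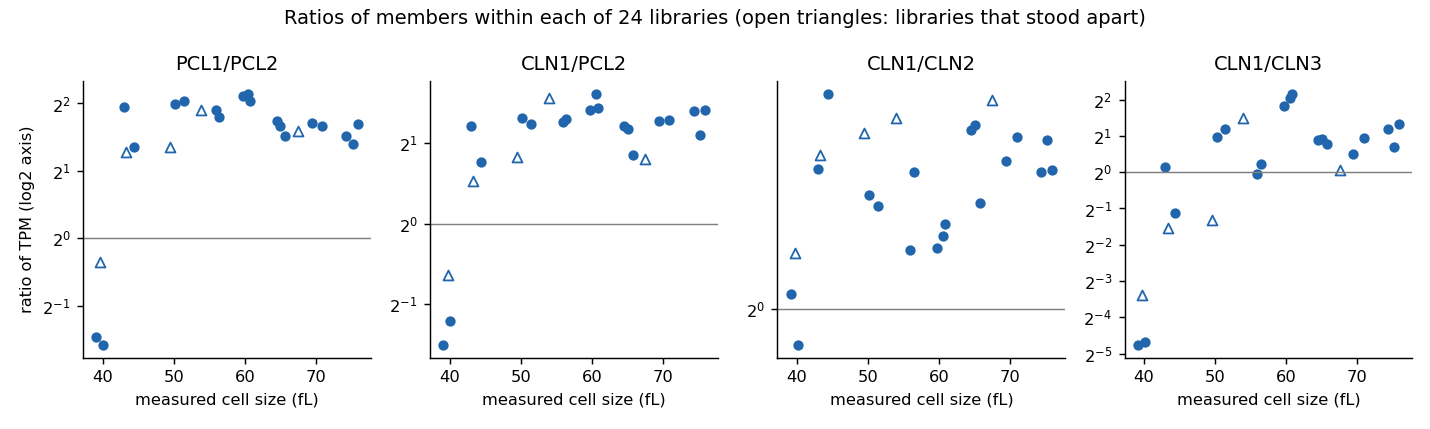
Ratio of TPM within each library (y axis, log2 axis; a line marks equal levels) against measured cell size in fL (x axis) for PCL1 over PCL2, CLN1 over PCL2, CLN1 over CLN2 and CLN1 over CLN3. Open triangles are the libraries that stood apart. The ratios to PCL2 and CLN3 are lowest in the libraries near 40 fL, and that of CLN1 to CLN2 varies over a narrower range.

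The genes whose log2 CPM tracked each member most closely were taken by Pearson's r over the 24 libraries, given as a description because neighbouring sizes share the same course and libraries share depth. For CLN1 they were YOX1 (r = 0.998), MCD1 (0.995), CSI2 (0.995), CLB6 (0.994) and TOS4 (0.992). For CLN2 they were CSI2, MCD1 and PRY2 (0.996 each), GIN4 (0.995) and RNR1 (0.994). MCD1 was on the lists of all 4 rising cyclins and YOX1 on those of CLN1, PCL1 and PCL2. For PCL1 they were CLB6 (0.995), TOS4 (0.992), YOX1 (0.991), MCD1 (0.990) and CSI2 (0.989). For PCL2 they were YOX1 (0.984), CAF120 (0.984), ACM1 (0.982), YPT11 (0.982) and MCD1 (0.982). Among the members themselves r ran from 0.975 to 0.993 for the 4 rising genes and from -0.75 to -0.63 between CLN3 and each of them.

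For CLN3 the closest were CYC3 (r = 0.939), HAA1 (0.936), CDH1 (0.928), ENT5 (0.926) and MRPL1 (0.924), all below the values of the other members. CYC3 is also the gene next upstream of CLN3 on the same strand, 1195 bases away. CYC3 had 19.0 ± 2.81 CPM at 60 fL and 66.7 ± 3.96 CPM at 40 fL (SD, n = 3 each). The neighbour of CLN3 on its other side, CDC24, 373 bases away, had r = 0.343. Among the other genes near CLN3, r ran from -0.74 (SPC72, 8920 bases away) to 0.82 (PTA1, 4725 bases away). A part of position was not tested.

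The kinases that the cyclins activate had smaller fitted changes than the 4 rising cyclins. CDC28 rose by 1.20 ± 0.09 at 60 over 40 fL (adjusted p = 9.24e-08), with 81.0 ± 4.70 CPM at 60 fL and 35.2 ± 4.28 CPM at 40 fL (SD, n = 3 each). PHO85 rose by 0.57 ± 0.13 (adjusted p = 0.000749). CKS1, the small adaptor of Cdc28, was at 0.17 ± 0.10 (adjusted p = 0.136). The counts of the lists at 60 over 40 fL that follow are read against the 30.9% of all genes that passed as higher and the 34.2% that passed as lower. Of these 3 genes, 2 passed as higher, with a median change of 0.57, against -0.04 over all genes.

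The other cyclins of Pho85, which serve phosphate, glycogen and amino acid signalling among other roles, passed in either direction no more often than genes did at large. Of 8 tested, 2 passed as higher (PCL6 and PCL10) and 2 as lower (PCL5 and PHO80), with a median of 0.12. PCL5 fell by 1.36 on the log2 scale (SE 0.14, adjusted p = 1.01e-06) and PHO80, the cyclin of phosphate control, fell by 0.80 (SE 0.12, adjusted p = 1.83e-05). PCL9 was at 0.45 ± 0.36 at 60 over 40 fL (adjusted p = 0.272) and rose by 1.75 ± 0.36 at 75 over 60 fL (adjusted p = 0.00898), to 51.4 ± 8.19 CPM at 75 fL against 15.3 ± 3.62 CPM at 60 fL (SD, n = 3 each).

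Among 12 regulators of transcription at Start, 9 passed as higher and 1 as lower at 60 over 40 fL, with a median of 1.12. SWI4, the DNA-binding subunit of SBF, rose by 2.43 ± 0.31 (adjusted p = 4.86e-06) and its partner SWI6 by 1.03 ± 0.12 (adjusted p = 1.86e-06). STB1, a Swi6-binding protein, rose by 1.54 ± 0.16 (adjusted p = 8.70e-07) and MSA2, which acts with SBF and MBF, by 2.59 ± 0.30 (adjusted p = 2.40e-06). SWI4 had 265 ± 21.9 CPM at 60 fL and 49.1 ± 9.21 CPM at 40 fL (SD, n = 3 each). The gene that fell was XBP1, named after its value was seen, a repressor of transcription, at -1.24 ± 0.48 (adjusted p = 0.0292).

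Other targets of SBF and the targets of MBF, which serve budding, the cell wall and DNA replication, moved in the direction of the 4 rising cyclins. Of 10 other SBF targets, 9 rose and none fell at 60 over 40 fL, with a median of 2.48, and all 8 MBF targets rose, with a median of 3.38. Examples are YOX1, a repressor of genes of early G1 (5.34 ± 0.51, adjusted p = 7.14e-07), TOS6 (5.66 ± 0.58, adjusted p = 1.01e-06), and CLB6, an S-phase cyclin (5.81 ± 0.51, adjusted p = 4.55e-07). CLB6 had 74.6 ± 3.71 CPM at 60 fL and 1.28 ± 0.950 CPM at 40 fL (SD, n = 3 each). RFA1, a subunit of the single-strand DNA-binding protein RPA, rose by 2.48 ± 0.24 (adjusted p = 7.41e-07). At 45 over 40 fL, 7 of the 10 SBF targets and all 8 MBF targets had already risen, where 11.6% of all genes passed as higher. The SBF target that did not rise was TOS8, at -0.39 ± 0.17 (adjusted p = 0.0606), also named after its value was seen.

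**Figure D5:**
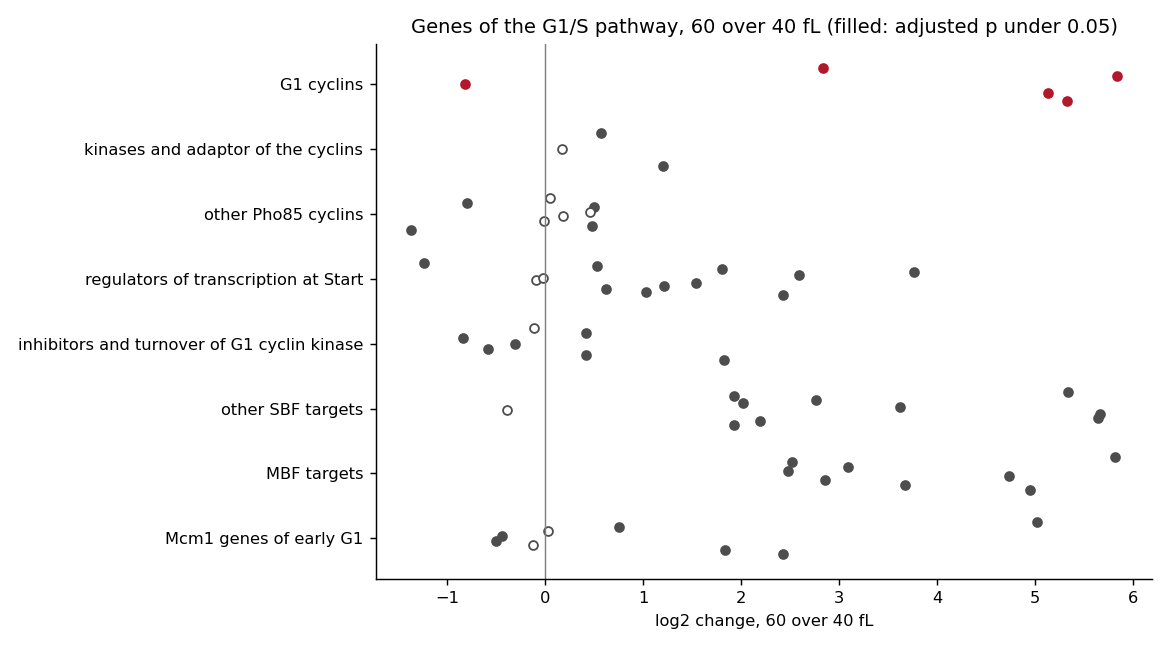
Log2 change at 60 over 40 fL (x axis, CPM with TMM scaling) for the 5 G1 cyclins, in red, and the genes of 7 lists of the same pathway, in grey. Each point is a gene, filled where the adjusted p is under 0.05. The other SBF targets and MBF targets lie mostly between 1.9 and 5.8, while the kinases and other Pho85 cyclins lie between -1.4 and 1.2.

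Genes that hold the cyclin kinases back or turn the cyclins over passed as higher in 3 of 7 cases and as lower in 3 at 60 over 40 fL, where 30.9% of all genes passed as higher and 34.2% as lower, with a median of -0.11. FAR1, an inhibitor of Cln-Cdc28, rose by 1.82 ± 0.28 (adjusted p = 2.42e-05), and CDC53, the cullin of the SCF ubiquitin ligase, rose by 0.42 ± 0.16 (adjusted p = 0.0243). GRR1, which marks Cln1 and Cln2 for destruction through SCF, fell by 0.58 (SE 0.11, adjusted p = 0.000276). SIC1, an inhibitor of the S-phase cyclin kinase, rose by 0.42 ± 0.15 (adjusted p = 0.0211) and by a further 0.78 ± 0.15 at 75 over 60 fL (adjusted p = 0.00714).

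Of 8 genes listed for Mcm1, the factor of the other motif searched, 4 rose and 2 fell at 60 over 40 fL, where 30.9% of all genes passed as higher and 34.2% as lower, with a median of 0.40. Those that rose were SWI4, CDC6, a loader of the replicative helicase (1.84 ± 0.23, adjusted p = 4.29e-06), MCM7, a helicase subunit (0.76 ± 0.15, adjusted p = 0.000228), and YHP1, a repressor of Mcm1 targets (5.02 ± 0.54, adjusted p = 1.21e-06). SWI4 was also counted among the regulators at Start, and YHP1 was highest at 65 fL. Those that fell, like CLN3, were the helicase subunits MCM3 (-0.50 ± 0.15, adjusted p = 0.00671) and MCM5 (-0.44 ± 0.14, adjusted p = 0.00946).

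Markers of mitosis moved with size as well. The summed level of 6 mitotic genes (CLB1, CLB2, CDC5, CDC20, SWI5 and CHS2) was 46.9 to 72.2 CPM at 40 fL, 72.9 to 181 CPM at 45 fL and 77.8 to 416 CPM at 50 fL. It was 427 to 1002 CPM at 55 fL, 534 to 628 CPM at 60 fL and 1137 to 1474 CPM from 65 to 75 fL. All 6 rose at 60 over 40 fL, where 30.9% of all genes did, so the pools of 60 and 40 fL differed in mitotic transcripts as well as in the G1 cyclins. At 55 over 50 fL, 5 of the 6 mitotic genes passed as higher, where 21.7% of all genes passed in either direction. No G1 cyclin was called at that step with all libraries. The 53.9 fL library, which stood apart, had the highest mitotic level of its group and the lowest CLN3. Whether cells past S phase take part in the later levels of the cyclins was not tested. In a pool, fewer cells that express a gene and less of its RNA per cell cannot be told apart.

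Genes that diploid cells keep low gave a check of the strain label. None of 13 haploid-specific genes was at 0 in any library, and their summed level was 69.1 to 78.3 CPM at 60 fL and 217 to 233 CPM at 40 fL. At 60 over 40 fL, 11 of the 13 fell, where 34.2% of all genes did, and none rose, where 30.9% did. Their part in the changes of the cyclins was not tested.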

How the data were processed

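Per the submitters' processing notes, the authors used featureCounts (Subread) and build R64; the deposited counts are raw reads per gene. They also deposited TPM, which followed from the counts by 1 constant length per gene to within 8.51e-05%, over genes well counted in every library. For the 5 members the length implied by TPM equalled the annotated length. For the aligner, versions and strand settings, nothing was given in the sources used here. TPM sums were 999791 to 999870. Each library joined the nearest multiple of 5 fL; the one of 67.5 fL joined 70 fL.

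Counts of all 24 libraries were fitted in edgeR (4.0.16, R 4.3.3): TMM factors (1.16 to 1.17 at 40 fL, 0.929 to 1.04 elsewhere), the filterByExpr filter, 1 coefficient per size and quasi-likelihood F tests over the 8 sizes and for 10 contrasts, adjusted by Benjamini-Hochberg over 6402 genes, at 0.05. SE was taken as the absolute log2 change over the root of F. The fit was tested on simulated data first. Ratios used TPM. Replicates were not duplicates (chi-square per degree of freedom 9.19 to 262).

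Alternatives were RLE factors, library totals, DESeq2 (1.42.0), limma-voom (3.58.1), 2 other filters, TPM with pseudocounts of 1 and 0.1 in limma, other groupings and left-out libraries. The members and gene lists were chosen with earlier results of these data known. Named genes were the members, for each the 5 with the highest r among genes of at least 10 CPM, and up to 4 per list by smallest adjusted p over the 8 sizes; any other name follows its count. 1 motif and 1 gene list are not reported here.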

Additional observations from a re-analysis of the deposited data

How the results depend on the processing

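The members' calls at 45 over 40, 60 over 40 and 75 over 40 fL kept their direction and stayed past the threshold under all 12 ways of fitting and without each library in turn. Of 2460 values of members or of ratios between them, each under 1 alternative setting, 2305 kept direction and side of the threshold, 68 newly passed, 46 no longer passed and 41 turned sign. The cause of the changes was not tested.

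Counts of genes called over all genes were less stable. At 60 over 55 fL, 307 genes were called, against 148 with library totals, 927 with DESeq2, 49 with TPM plus 1 and 48 with TPM plus 0.1. At 65 over 60 fL, 326 were called, against 551 with DESeq2, 582 with the 67.5 fL library in the 65 fL group and 2314 in a fit on 2 sizes. At 75 over 70 fL, 22 were called, against 56 with DESeq2 and 7 on 2 sizes, and at 75 over 60 fL, 257, against 452 and 1129. A fit on 2 sizes called 474 genes at 45 over 40 fL (924 in all 24 libraries), 0 at 50 over 45 fL (2055) and 206 at 55 over 50 fL (1390). Without the 5 libraries that stood apart, the steps in order of size called 2660, 3470, 3676, 3438, 1966, 1 and 62 genes, and 75 over 60 fL called 1420. Leaving out each library in turn gave 418 to 1193 genes at 45 over 40 fL, 1 to 3434 at 50 over 45 fL, 615 to 2606 at 55 over 50 fL, 0 to 1886 at 60 over 55 fL, 80 to 655 at 65 over 60 fL, 0 to 1 at 70 over 65 fL, 11 to 33 at 75 over 70 fL and 80 to 466 at 75 over 60 fL. Of the pairs of members, 1 differed in ratio between 65 to 75 and 50 to 60 fL, against 4 without the 5 libraries, 2 with TPM plus 1, 2 without the 67.5 fL library and 1 to 4 without each library.

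The values that turned sign had not passed the test. CLN3 at 45 over 40 fL went to -0.0040 with RLE factors and with DESeq2, -0.0031 with no filter, -0.16 with library totals, -0.20 with TPM plus 1 and plus 0.1, -0.15 without the 5 libraries, and -0.026 to 0.10 without each library. At 55 over 50 fL, CLN1 went to 0.11 with limma-voom and 0.13 with TPM plus 1 and plus 0.1, CLN2 to 0.11, 0.13 and 0.14, and CLN3 to 0.24 without the 5 libraries. Without each library CLN1 ran there from -0.48 to 0.20, CLN2 from -0.59 to 0.16, PCL1 from -0.75 to 0.031 and CLN3 from -0.29 to 0.054, while PCL1 at 75 over 70 fL ran from -0.16 to 0.077. With the 67.5 fL library in the 65 fL group, CLN1 and CLN2 at 70 over 65 fL went to 0.10 and 0.13. Log2 ratios turned sign for CLN1 over CLN2 in the earlier span (-0.019 to 0.18 without each library) and in the later span for CLN1 over CLN3 (-0.42 to 0.015), CLN2 over PCL1 (-0.10 to 0.022, and 0.022 without the 67.5 fL library) and CLN3 over PCL2 (-0.16 to 0.20, and 0.14 without the 5 libraries).

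No paired analysis was possible because the labels number no replicates and the numbers used here follow the order of the records. With 3 pools per size the spread within 45, 50 and 55 fL limits what single steps can show.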
